A study of Mus musculus with 3 samples.

Results

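Type I interferon response genes are the genes that a cell switches on after interferon alpha or beta binds its surface receptor. The 35 genes described here were chosen by name as a module and matched by symbol, and all 35 were among the 32285 genes of the count tables. They were followed in peripheral blood mononuclear cells of C57BL/6 mice, prepared as 3 single-cell libraries with the 10x Genomics 3ʹ kit version 3. One library came from young mice given PBS for 1 month, one from aged mice given PBS for 1 month and one from aged mice given AA for 1 month; AA stands for ascorbic acid in the study's title. The labels do not give the ages in months, the route of AA, or how many mice went into a library. Each group is therefore 1 library, and no test between groups was possible: every interval below is a 95% interval that covers counting error only, and none covers the difference between mice.

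In this pathway the receptor chains Ifnar1 and Ifnar2 activate the kinases Jak1 and Tyk2, which lead to a transcription factor complex holding Stat2 and Irf9. The complex binds the interferon-stimulated response element, a repeat of the letters GAAA, upstream of its target genes. The products block viral RNA (the Ifit and Oas families), modify proteins (Isg15), hold virus particles at the membrane (Bst2), sense nucleic acids (Ifih1, Zbp1, the HIN-200 family) or raise the response further (Irf7). In resting blood cells many of these genes are known to be expressed at low levels.

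The members lie in several family clusters. On the mouse build GRCm38 the 3 Ifit members span chr19:34550694-34650009, the 5 HIN-200 members (Ifi203, Ifi206, Ifi208, Ifi209 and Ifi213) chr1:173468485-173942672, the Schlafen members (Slfn1, Slfn2, Slfn5 and Slfn8) chr11:82951349-83122670 and Oas1a, Oas2 and Oas3 chr5:120730333-120907521, by the GENCODE M21 annotation. Several have near copies beside them (other HIN-200 genes, Oas1g, Slfn9, Trim30d, Ifit3b), so the counts of these families are uncertain where a read could come from more than 1 copy.

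Promoter sequences from RefSeq (build GRCm38.p6, 250 bases before to 50 bases after each transcription start) were found for 28 of the 35 members. The entries of Usp18, Oas2, Rtp4, Ifi27l2a, Dhx58, Parp14 and Zbp1 were missing. The letters GAAANNGAAA, searched on both strands and with overlapping matches allowed, were present in 16 of the 28 members. They were present in 3.99% of the 27025 genes with a promoter sequence. The letters TTCNNNGAA, a core of the sites that STAT proteins bind, were in 5 of the 28 members and in 9.55% of all genes. A match is a description of the letters and does not show binding.

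Upstream windows of 9 members are shown because the results below turn on these members, on single genes or on pairs within 1 family; capitals mark GAAANNGAAA or its reverse complement, each window is printed 5′ to 3′ along its gene's strand, and none reaches the transcription start.
Isg15: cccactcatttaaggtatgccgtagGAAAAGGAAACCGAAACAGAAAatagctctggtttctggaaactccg
Ifit1: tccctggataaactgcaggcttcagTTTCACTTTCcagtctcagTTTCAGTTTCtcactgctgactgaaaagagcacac
Ifit3: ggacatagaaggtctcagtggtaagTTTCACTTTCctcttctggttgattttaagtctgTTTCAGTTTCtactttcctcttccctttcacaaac
Oas1a: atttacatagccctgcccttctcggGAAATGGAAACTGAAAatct
Oas3: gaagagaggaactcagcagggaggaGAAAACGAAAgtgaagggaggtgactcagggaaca
Slfn5: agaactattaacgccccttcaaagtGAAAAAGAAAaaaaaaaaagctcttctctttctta
Ifi206: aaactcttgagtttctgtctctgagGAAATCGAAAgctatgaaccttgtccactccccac
Ifi208: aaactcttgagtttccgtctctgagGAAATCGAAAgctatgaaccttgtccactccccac
Ifi213: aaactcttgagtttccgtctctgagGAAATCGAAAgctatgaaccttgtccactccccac
The windows lie at chr4:156200850-156200921 (Isg15, minus strand), chr19:34640760-34640838 (Ifit1, plus), chr19:34583348-34583441 (Ifit3, plus), chr5:120907526-120907570 (Oas1a, minus), chr5:120777700-120777759 (Oas3, minus), chr11:82951922-82951981 (Slfn5, plus), chr1:173491324-173491383 (Ifi206, minus), chr1:173673582-173673641 (Ifi208, plus) and chr1:173599311-173599370 (Ifi213, minus). Isg15 held 3 overlapping matches, with the nearest starting 66 bases before the start site. The windows of Ifi208 and Ifi213 were identical over 60 bases, and that of Ifi206 differed from them at 1 base (T16C, counted from 1 at the first printed base, Ifi206 first).

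The libraries held 64496639 (young), 94944551 (aged) and 80424480 (aged+AA) unique molecular identifiers (UMIs, 1 per captured RNA molecule). After filters on depth, mitochondrial share and doublets, 8735, 9767 and 11230 cells were kept in that order. Cells were assigned by the number of different lineage markers with a UMI: 5409, 2055 and 4342 T cells, 2387, 3815 and 5036 B cells, 323, 239 and 190 NK cells and 64, 1891 and 268 myeloid cells. The young myeloid gate of 64 cells was thus the thinnest group. Between 24 and 29 cell barcodes were shared by each pair of libraries. The T cells also differed in kind: a UMI of Ccl5, a chemokine of effector and memory cells, was present in 14.1% (young), 48.2% (aged) and 54.0% (aged+AA) of T cells. RNA from outside the cells made up an estimated 0.909%, 2.17% and 1.65% of the UMIs of the T gate, and the 12 myeloid markers summed to 145, 451 and 154 CPM (UMIs per 1000000 UMIs) there. Erythroid markers (6 genes) summed to 962, 6230 and 2237 CPM and NK markers (7 genes) to 104, 693 and 395 CPM in the T gate, also highest in the aged library. Their part in the results below was not tested, except where a value is given with free RNA subtracted.

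Levels are UMIs summed over the cells of a gate, scaled to CPM, and a lower level in a gate's sum can mean fewer expressing cells or less RNA per cell. Because the median gene of the T gate was already higher in CPM in aged than in young (by 0.39 on the log2 scale; B cells 0.28), each ratio is given relative to the all-gene median ratio of its gate, called the relative ratio. A member counts as higher or lower when it lies at least 1.5 times past that median, over genes with at least 20 UMIs in the 2 libraries compared. The aged library enters both comparisons, aged over young and aged+AA over aged, so a high count there raises the first ratio and lowers the second.

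**Figure D1:**
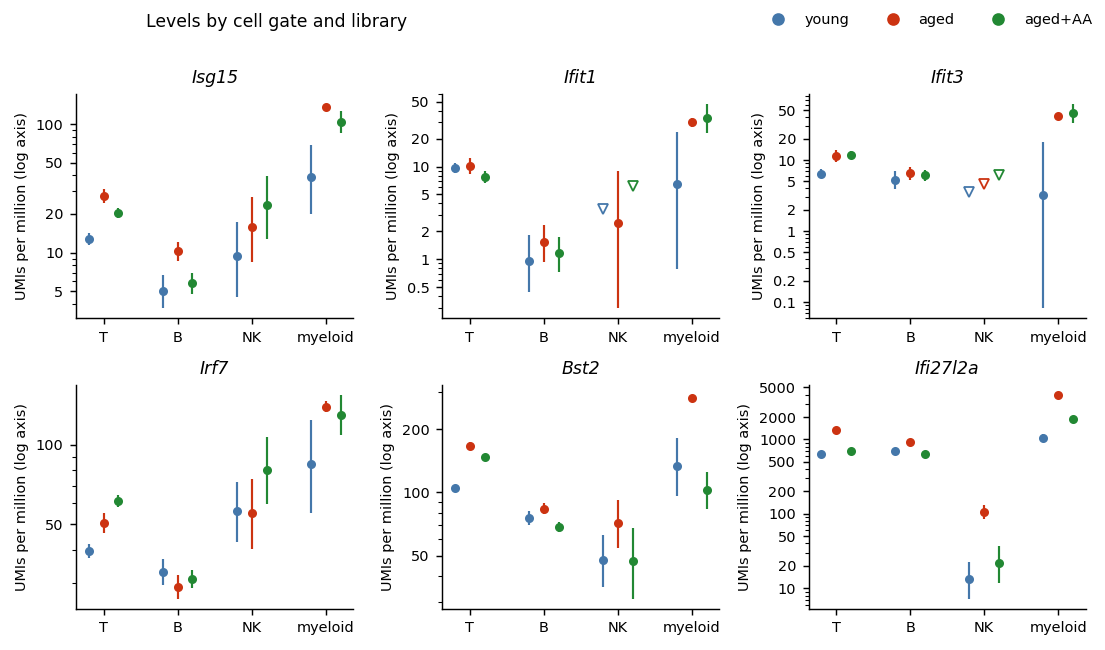
Level of 6 members (CPM, log axis, each panel with its own range) in the T, B, NK and myeloid gates of each library. Points are the single library of each group, lines exact 95% Poisson intervals, and open triangles the upper end of that interval where no UMI was counted; Ifit3 had no UMI in NK cells of any library, and the aged point of Ifi27l2a stands highest in every gate.

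In T cells of the aged library the Oas genes, Isg15, Ifi27l2a, Ifih1 and Ifi44 stood above the young library, while the HIN-200 gene Ifi208 stood below it. All 35 members passed the filter in T cells. Of them 7 were at least 1.5 times higher, where 16.1% of all 11842 genes tested were, and 1 was lower, where 13.3% of all genes were. The members' median was 0.27 on the relative log2 scale, and 22 of 35 lay above the all-gene median. The share of members called higher was thus near that of all genes. In T cells with no Ccl5 UMI, 10 of 35 members were higher, where 14.9% of all genes were, and 1 was lower (13.3%). On CPM without centring on the all-gene median, 19 members were higher, where 35.4% of all genes were, and 0 lower (5.67%).

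The IFIT proteins bind foreign RNA and stop its translation. Ifit1 counted 9.66 (young), 10.2 (aged) and 7.77 (aged+AA) CPM, and values below follow this order. The 3 libraries lay close together, and the relative ratio of aged over young was 0.806 (0.636 to 1.02). Ifit2 was at 11.7, 11.5 and 10.4 CPM, with a relative ratio of 0.753 (0.603 to 0.933). Ifit3 counted 6.45, 11.4 and 11.8 CPM. Both aged libraries were above the young one, and the relative ratio of aged over young was 1.35 (1.06 to 1.71). The relative ratios of Ifit2 and Ifit3, neighbours in 1 cluster, thus lay on opposite sides of 1, although Ifit2 was nearly level in CPM.

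Isg15 is a ubiquitin-like protein that is attached to other proteins, and Usp18 takes it off again and also restrains the receptor. Isg15 was at 12.8 (95% interval 11.5 to 14.2), 27.7 (24.5 to 31.2) and 20.4 (18.7 to 22.3) CPM in T cells. The intervals did not overlap, with the aged library highest and aged+AA between the others. Its relative ratio was 1.64 (1.40 to 1.93) in the first comparison and 0.846 (0.729 to 0.984) in the second. A stricter gate, which kept 2973, 213 and 1461 T cells, ended this call: the relative log2 ratio of aged over young was then -0.0088 for Isg15 and -1.20 for Ifit3. In the second comparison Isg15 changed sign, to 0.65 under that gate and to 0.16 in T cells with no Ccl5 UMI. The stricter gate allows no UMI of a B or myeloid marker, and its T cells were shallower, with medians of 4815, 3843 and 4859 UMIs against 4967, 4464 and 5319. Usp18 counted 5.39, 9.93 and 10.3 CPM, with relative ratios of 1.40 (1.08 to 1.82) and 1.19 (0.939 to 1.52). Isg20, an exonuclease that degrades RNA, was at 12.3, 21.8 and 15.1 CPM in T cells. It was also present at 474, 227 and 286 CPM in barcodes whose UMIs were mostly haemoglobin, as was Isg15 at 274, 84.5 and 67.8 CPM, and their part in the T-cell values was not tested.

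The oligoadenylate synthetases make the second messenger that activates the RNA-cutting enzyme RNase L. Oas1a counted 4.27, 15.3 and 11.6 CPM in T cells. Oas3 counted 3.95, 15.9 and 8.46 CPM. For both, the young library was lowest and the aged one highest, and the relative ratios of aged over young were 2.74 (2.14 to 3.51) and 3.08 (2.40 to 3.95). With AA, against the aged library, they were 0.866 (0.709 to 1.06) and 0.609 (0.493 to 0.754). Oas2 was at 2.19, 4.41 and 2.63 CPM on 62, 44 and 65 UMIs. Oasl2, a synthetase-like relative, counted 3.70, 6.72 and 7.36 CPM and had relative ratios of 1.38 (1.00 to 1.90) and 1.26 (0.946 to 1.69).

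The largest ratio among the members in T cells belonged to Ifi44, a cytoplasmic protein. It rested on 27, 66 and 54 UMIs, or 0.952, 6.62 and 2.18 CPM. The aged library was the highest, with a relative ratio over young of 5.30 (3.34 to 8.62), and aged+AA over aged was 0.379 (0.260 to 0.552). Ifi27l2a, a small hydrophobic protein, had the most UMIs of all members. It was at 635, 1351 and 702 CPM in T cells, with relative ratios of 1.62 (1.58 to 1.66) and 0.597 (0.583 to 0.610). The RNA outside the cells held 778, 1553 and 771 CPM of the same gene and so was also highest in the aged library. After thinning each T cell to 1000 UMIs, 38.0%, 52.9% and 38.2% of T cells had an Ifi27l2a UMI, against 0.704%, 3.31% and 1.26% that free RNA alone would give and 76.2%, 82.8% and 73.1% without thinning.

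Ifih1, the sensor of long double-stranded RNA, was at 5.92, 12.9 and 9.10 CPM in the T cells, with a relative ratio of aged over young of 1.66 (1.31 to 2.10). Dhx58, its regulator, counted 4.97, 7.62 and 6.11 CPM. Zbp1, a sensor of left-handed nucleic acids, counted 34.6, 43.0 and 31.7 CPM. The relative ratios of the latter pair were 1.17 (0.872 to 1.55) and 0.947 (0.844 to 1.06), both with intervals that include 1.

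The HIN-200 family includes DNA-binding proteins, and its members did not follow the Oas genes in T cells. Ifi208 was at 31.8, 22.2 and 19.8 CPM in T cells. Both aged libraries were below the young one, and the relative ratio of aged over young was 0.531 (0.457 to 0.616). Ifi203 counted 264, 271 and 202 CPM, Ifi206 72.6, 75.0 and 61.4, and Ifi213 64.5, 63.2 and 55.4. Their relative ratios of aged over young were 0.781 (0.747 to 0.816), 0.787 (0.723 to 0.856) and 0.746 (0.680 to 0.817), below the all-gene median although the CPM itself was nearly level. Ifi209 was at 61.0, 87.1 and 72.5 CPM and had a relative ratio of 1.09 (1.00 to 1.18). Ifi206, Ifi208 and Ifi213, whose upstream windows differ by at most 1 base, thus all lay below the median in T cells. So did Ifi203, whose own window was identical to each of theirs at only 34 of 60 bases. In B cells the relative ratios of aged over young were 0.836 (Ifi206), 0.861 (Ifi208) and 1.03 (Ifi213). The intervals of Ifi208 and Ifi213 included 1 there. Whether the window letters had a part in these ratios was not tested.

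Among the transcription factors, Stat2 counted 7.69, 13.7 and 8.13 CPM in T cells and was highest in the aged library, with relative ratios of 1.36 (1.09 to 1.69) and 0.680 (0.545 to 0.851). Irf9, its partner, counted 31.5, 36.6 and 28.6 CPM. Irf7, the factor that amplifies interferon production, was at 39.5 (37.2 to 41.9), 50.7 (46.3 to 55.3) and 61.2 (58.1 to 64.3) CPM. The aged+AA library was highest, whereas Isg15, Oas1a and Oas3 were highest in the aged library, and its relative ratio of aged+AA over aged was 1.39 (1.25 to 1.54).

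Bst2, which tethers virus particles to the membrane, was at 105, 166 and 148 CPM in T cells, and its relative ratios were 1.21 (1.14 to 1.28) and 1.02 (0.964 to 1.08). Rtp4, a chaperone of membrane receptors, rested on 456, 185 and 444 UMIs, with relative ratios of 0.879 (0.737 to 1.04) and 1.11 (0.935 to 1.33). Slfn5, a nuclear Schlafen protein, rested on 597, 383 and 491 UMIs, and the aged library was the high one at 38.4 CPM against 19.9 with AA, and its relative ratios were 1.39 (1.22 to 1.58) and 0.594 (0.519 to 0.681). Slfn1 and Slfn2, the latter known to keep T cells quiescent, were near the median, with relative ratios of aged over young of 0.957 (0.888 to 1.03) and 1.04 (0.984 to 1.09), and Slfn8 counted 19.7, 28.3 and 20.4 CPM. The remaining 6 members, Trim30a, Parp14, Phf11b, Xaf1, Ifi35 and Ifi47, had relative ratios of aged over young from 0.937 (Ifi35) to 1.48 (Trim30a), the latter just inside the 1.5-fold limit.

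**Figure D2:**
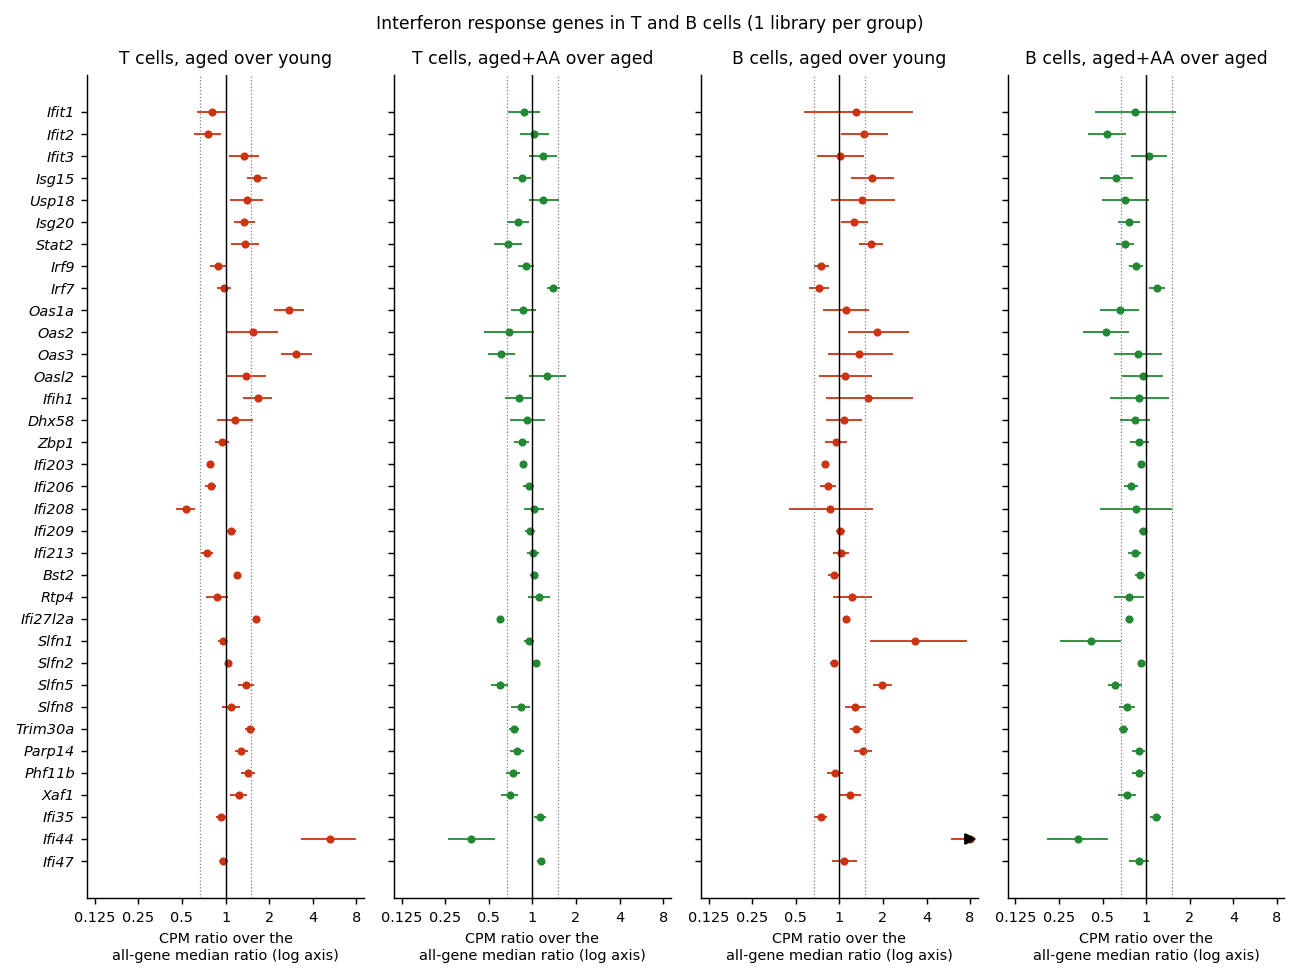
Relative ratio of each of the 35 members (CPM ratio over the all-gene median ratio, log axis) in T and B cells for aged over young (red) and aged+AA over aged (green). Points are ratios of single libraries, lines exact 95% intervals for counting error, dotted lines 1.5 times either way and the black arrow a ratio beyond the axis (Ifi44 in B cells, 1 young UMI). Oas1a, Oas3 and Ifi44 stand to the right and Ifi208 to the left in T cells of aged over young, and most green points lie near or left of 1.

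For aged+AA over aged, 0 of 35 members were higher in T cells, where 7.37% of all genes were, and 4 were lower, Oas3, Ifi27l2a, Ifi44 and Slfn5 (11.4%, against 8.45% of all genes). The members' median was -0.20 on the relative log2 scale. Against the young library, the aged+AA T cells had 6 members higher, Ifit3, Usp18, Oas1a, Oas3, Oasl2 and Ifi44 (17.1%, against 10.7% of all genes), and Ifi208 lower (8.16% of all genes).

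Within the T gate, cells with a UMI of only 1 coreceptor were taken as CD8 T cells (2020, 832 and 2277 cells) or CD4 T cells (1055, 547 and 679 cells). CD8 T cells made up 37.3%, 40.5% and 52.4% of the T gate and CD4 T cells 19.5%, 26.6% and 15.6%. T cells with neither coreceptor or with both were in neither subset. In CD4 T cells 13 of 35 members were higher in aged than in young (37.1%, against 16.2% of all genes) and 2 were lower, Ifi206 and Ifi208 (13.7% of all genes). In CD8 T cells 5 of the 34 that passed the filter were higher, Stat2, Usp18, Oas1a, Oas2 and Oas3 (14.7%, against 13.8%), and Ifi208 was lower (12% of all genes). The difference between the subsets was not tested. Oas1a, chosen here after its values were seen, was at 3.82, 25.5 and 19.2 CPM in CD4 and at 4.13, 11.5 and 9.32 CPM in CD8 T cells. Its relative ratio of CD4 over CD8 within a library was 0.855 (0.483 to 1.46), 1.99 (1.35 to 2.92) and 1.82 (1.33 to 2.47), with an interval that includes 1 in the young library.

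Ifi27l2a was higher in CD4 than in CD8 T cells in all 3 libraries, at 845 against 459, 2353 against 763 and 1492 against 437 CPM. Slfn5 was higher in CD4 as well, with relative ratios of 2.55 (2.01 to 3.24), 3.49 (2.64 to 4.66) and 4.60 (3.63 to 5.83). In the young library 8 of 34 members were higher in CD4 than in CD8 T cells, with all genes at 7.54%, and Oas3 was lower, with all genes at 8.98%. In the aged library 15 of 35 were higher (9.79% of all genes) and Ifi206 lower (10.5%), and in the aged+AA library 13 higher (9.79%) and 0 lower (11.5%). For aged+AA over aged, CD4 T cells had Irf7 higher (7.68% of all genes) and Oas2, Oas3 and Xaf1 lower (9.38%). CD8 T cells had Ifit3 higher (7.24%) and Stat2, Ifi27l2a, Ifi44 and Slfn5 lower (7.56%). Against the young library, aged+AA CD4 T cells had 7 members higher (10.5% of all genes) and 2 lower (8.1%), and CD8 T cells had 4 higher (10.1%) and 1 lower (7.8%).

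B cells of the aged library had more Isg15, Stat2, Oas2, Ifi44, Slfn1, Slfn5 and Ifih1 than those of the young library. These 7 of 35 members were at least 1.5 times higher, where 11.9% of all 11137 genes were, and 0 were lower (10.8% of all genes). With AA, 7 members were lower than in the aged library, Ifit2, Isg15, Oas1a, Oas2, Ifi44, Slfn1 and Slfn5, where 7.17% of all genes were, and 0 were higher (6.18%). The members' median was 0.15 for the first and -0.26 for the second comparison on the relative log2 scale, and 32 of 35 lay at or below the all-gene median in the second. Against the young library, aged+AA B cells had Ifi44 higher (6.61% of all genes) and Irf9 and Ifi206 lower (7.29%).

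Isg15 was lower in B than in T cells throughout, at 5.06 (3.71 to 6.72), 10.3 (8.66 to 12.2) and 5.79 (4.78 to 6.96) CPM. The aged library stood alone, and the young and aged+AA intervals overlapped. The relative ratios were 1.68, with an interval above 1, and 0.623 (0.481 to 0.804). Slfn5 was at 24.8, 59.6 and 32.7 CPM in B cells, with relative ratios of 1.97 (1.70 to 2.30) and 0.609 (0.548 to 0.677). Stat2 counted 15.2, 30.4 and 19.6 CPM and had relative ratios of 1.65 (1.36 to 2.02) and 0.713 (0.618 to 0.822). Each of these was highest in the aged library.

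Ifi44 rested on 1, 58 and 27 UMIs in B cells. The relative ratio of aged over young was 34.0, with a counting interval from 5.86 to 1364, and that of aged+AA over aged was 0.340 (0.207 to 0.546). Slfn1 rested on 9, 51 and 29 UMIs. Ifit1 was scarce in B cells, at 9, 20 and 23 UMIs, and Ifit3 counted 5.27, 6.50 and 6.15 CPM, with relative ratios of 1.02 (0.706 to 1.47) and 1.05 (0.789 to 1.40). Irf7 was at 33.0, 29.0 and 30.9 CPM and Bst2 at 75.5, 83.7 and 68.3 CPM, and neither passed the fold in B cells. The relative ratios of Parp14, a mono-ADP-ribosyltransferase, and Ifi35 in B cells of aged over young were 1.45 (1.26 to 1.68) and 0.741 (0.666 to 0.825), and that of Trim30a, which damps receptor signals, was 0.695 (0.644 to 0.751) for aged+AA over aged. Ifi27l2a was at 694, 938 and 645 CPM, a smaller difference than in T cells. The 12 myeloid markers summed to 333, 764 and 412 CPM in the B gate.

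NK cells had few UMIs of the core genes. Ifit3 and Oas2 had no UMI in NK cells of any library, and Oasl2 had 2, both with AA. In both comparisons 19 members passed the filter. For aged over young, 4 were higher, Isg15, Stat2, Ifi27l2a and Slfn8 (12.8% of all genes), and Zbp1 was lower (12%). For aged+AA over aged, Irf9 was higher (9.59%) and Stat2, Ifi27l2a and Xaf1 were lower (10.8%). Between aged+AA and young, 3 of 18 were higher (9.86%) and 0 lower (9.43%). Ifi27l2a rested on 14, 87 and 13 UMIs (13.3, 107 and 21.8 CPM), and 1.90%, 7.76% and 3.51% of NK cells had a UMI at 1000 UMIs per cell, against 0.945%, 4.76% and 1.98% from free RNA alone. The share from free RNA lay within the interval of the observed share in each library. Isg15, at 10, 13 and 14 UMIs, and Irf7, at 59, 45 and 48 UMIs, had intervals for the relative ratio that included 1 in both comparisons.

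Of the 4 gates, the myeloid gate carried the highest level of most members in each library. It was highest for 18 of 35 members in young, 26 in aged and 24 in aged+AA. The share of all genes that were highest in the myeloid gate is not given, so these counts are a description. The young count rests on 64 myeloid cells. In the aged library 5 members were highest in T cells (Ifi206, Ifi208, Ifi213, Ifi44 and Ifi47). There 3 were highest in B cells (Stat2, Ifi203 and Ifi209) and 1 in NK cells (Slfn8). Stat2 was nearly level, at 30.4 CPM in both B and myeloid cells of that library. Within the aged library, 26 members were at least 1.5 times higher in myeloid than in T cells (30.8% of all genes) and 3 lower (29.2%); against B cells the counts were 26 (32.4%) and 2 (29.6%). T cells stood above B cells for 15 members in young (20.7% of all genes), 17 in aged (19.7%) and 19 in aged+AA (21.2%), and below for 2 (20.3%), 2 (19.7%) and 3 (19.5%). Isg15 was at 39.0 (20.2 to 68.1), 136 (129 to 143) and 104 (84.5 to 126) CPM in myeloid cells. The young interval lay below both others. Ifi27l2a was at 1053, 3954 and 1880 CPM and Slfn5 at 39.0, 267 and 110 CPM, each highest in the aged library.

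Of 34 members that passed the filter in myeloid cells of aged over young, 28 were higher (82.4%, against 23.7% of all genes) and 0 lower (22.7%). The filter sums the UMIs of both libraries, so a member could pass on its aged UMIs alone. The added count of 0.5 then allows a call even with no young UMI. Of the 28, Ifi44, Oas1a, Dhx58 and Ifih1 had intervals that started below 1, at 0.431, 0.947, 0.889 and 0.980. For them counting error alone leaves the direction undecided. Many of the 28 rested on few young UMIs. Ifit1 had 2, Ifit2, Ifit3, Ifi206, Ifi213 and Ifi47 had 1 each. Usp18 had 0 against 226 in aged, at least 2.02-fold higher against a floor of 3 UMIs, and Ifi44 had 0 against 60, where the same floor gives no bound above 1. Lower bounds above 3 were reached by Slfn5, 6.97 (3.98 to 13.5), Ifi203, 6.52 (3.54 to 13.6), Rtp4, 9.05 (3.53 to 33.3) and Ifi27l2a, 3.83 (3.43 to 4.28). The gates also differed in kind: 49 of the 64 young myeloid cells had the monocyte and 13 the neutrophil markers, against 1037 and 814 of 1891 in aged and 112 and 155 of 268 in aged+AA. With the neutrophils left out, 30 of 34 members were higher and 0 lower (25% and 23.8% of all genes), with a median of 1.57 on the relative log2 scale against 1.29 with them. In aged+AA over young, 19 of 31 members were higher (18.2% of all genes) and Phf11b was lower (14%).

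For aged+AA over aged, 15 of 34 members were lower in myeloid cells (44.1%, against 18% of all genes) and 0 higher (15.9%). With the neutrophils left out, 22 were lower (17.8% of all genes) and 2 higher (15.3%). The contrast was computed within each kind as well. Among monocytes 23 members were lower (67.6% of 34, against 18% of all genes) and Ifit1 and Ifit2 were higher (15.4%). Among neutrophils 15 were lower (45.5% of 33, against 24%) and Usp18 was higher (15.4%). Bst2 counted 348 CPM in aged and 167 in aged+AA monocytes, and 75.6 and 7.60 CPM in neutrophils. Isg15 counted 106 and 59.6 CPM in monocytes, with a relative ratio of 0.516 (0.357 to 0.723), and 220 and 170 CPM in neutrophils, with 0.834 (0.638 to 1.07). The genes given by kind of cell were chosen after their values were seen. Oas3 had 512 UMIs in aged and 9 in aged+AA monocytes, with a relative ratio of 0.229 (0.104 to 0.438), but 383 and 57 UMIs in neutrophils, with 1.16 (0.864 to 1.54). Ifit1 went the other way, with 2.07 (1.30 to 3.18) in monocytes and 0.363 (0.154 to 0.732) in neutrophils. These differences between kinds were not tested. The aged+AA values of Ifit1 and Ifit2 rested on few cells. In the aged+AA myeloid gate 29 of 33 Ifit1 UMIs and 23 of 27 Ifit2 UMIs lay in 13 cells. These were the cells with 5 or more of the core genes described below, which include both genes, and 4 of them were monocytes.

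Monocytes and neutrophils were also compared within the aged library. Relative to all genes, monocytes had more of 8 of 34 members (28.4% of all genes; Bst2, Ifi203, Ifi206, Ifi209, Ifi213, Ifi44, Ifi47 and Phf11b), and neutrophils had more of 14 (29.4%), including all 3 Ifit members, Isg15, Isg20, Oas2, Oas3, Oasl2, Rtp4, Slfn1 and Slfn2. Among the HIN-200 members, Ifi203 was at 257 CPM in monocytes and 60.1 in neutrophils, and Ifi213 at 54.7 and 8.08. Ifit1 was at 18.9 and 60.4 CPM and Slfn1 at 185 and 524. The relative ratio of monocytes over neutrophils was 2.70 (2.31 to 3.17) for Ifi203 and 0.197 (0.158 to 0.246) for Ifit1. In the aged+AA library 11 of 31 were higher in monocytes (34.5% of all genes) and 15 in neutrophils (32.1%).

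**Figure D3:**
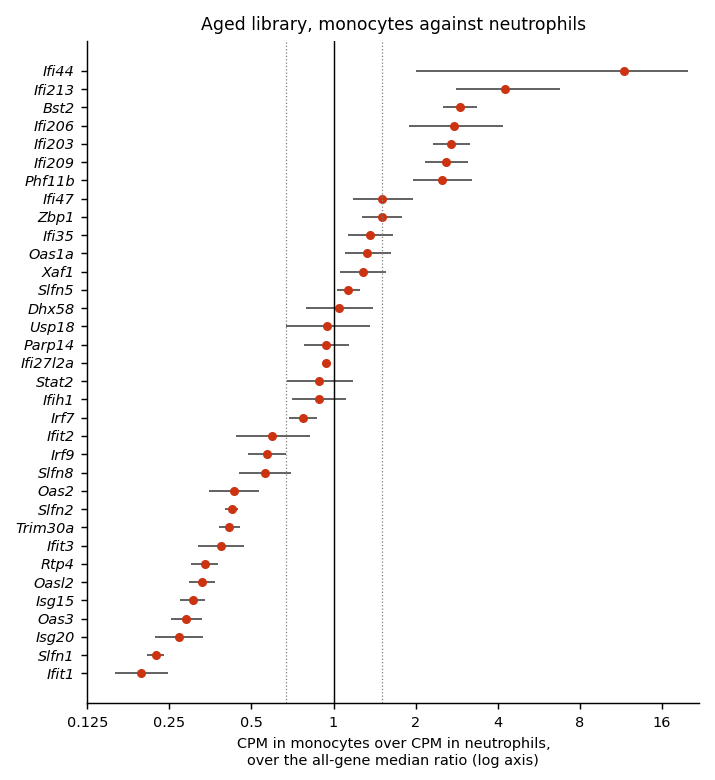
Relative ratio of monocytes over neutrophils (CPM ratio over the all-gene median ratio, log axis) for 34 members in the aged library, ordered by ratio. Points are ratios within 1 library, lines exact 95% intervals for counting error (that of Ifi44 ends at the axis limit) and dotted lines 1.5 times either way. HIN-200 genes and Bst2 lie at the upper end, Ifit1, Slfn1, Isg20 and Oas3 at the lower end.

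To see whether a few cells carried the response, 12 core members were counted in each cell. They were Ifit1, Ifit2, Ifit3, Isg15, Usp18, Irf7, Oas1a, Oas2, Oas3, Oasl2, Ifi44 and Rtp4, chosen as low in resting cells and strongly induced. Irf7 was not low here, with 1121 of the 3309 core UMIs of the young T gate. After thinning every cell to 1000 UMIs, cells with 3 or more core genes were rare among T cells. They numbered 11 of 5398 young (0.204%, exact binomial interval 0.102 to 0.364%), 13 of 2049 aged (0.634%, 0.338 to 1.08%) and 25 of 4320 aged+AA cells (0.579%, 0.375 to 0.853%). The aged and aged+AA shares were close to each other and the young one was lower, with an interval that overlaps that of the aged library. Among B cells the counts were 1 of 2387, 9 of 3799 and 9 of 5020. Among myeloid cells they were 1 of 64, 123 of 1875 (6.56%) and 13 of 263 (4.94%). No NK cell passed, 0 of 316, 0 of 232 and 0 of 171, which by the limit of 3 counts allows shares of up to 0.949%, 1.29% and 1.75% (upper ends of the exact intervals 1.16%, 1.58% and 2.13%).

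A limit of 5 or more core genes at full depth, chosen after seeing the data, gave more cells to describe. It marked 37 of 5409 young (0.684%, 0.482 to 0.942%), 33 of 2055 aged (1.61%, 1.11 to 2.25%) and 65 of 4342 aged+AA T cells (1.16 to 1.90%). The median depth of these cells was 5025, 4935 and 5986 UMIs, against 4966, 4460 and 5304 in the other T cells. Their summed myeloid markers were 141, 482 and 160 CPM, against 145, 451 and 154 CPM in the other T cells, and their T-cell markers 5569, 5398 and 5253 CPM against 5265, 5215 and 5141. Their NK markers summed to 165, 142 and 303 CPM against 104, 703 and 396. Their erythroid markers summed to 884, 7921 and 2011 CPM against 963, 6200 and 2241. The part of these differences in make-up was not tested. In B cells the same limit marked 4, 12 and 13 cells, in myeloid cells 4 of 64, 411 of 1891 (21.7%) and 13 of 268 (4.85%). The aged myeloid cells it marked were deeper than the rest, with a median of 9574 against 3438 UMIs. In the young T cells with 5 or more core genes, 4 markers of plasmacytoid dendritic cells summed to 15 UMIs, 70.6 against 17.6 CPM in the others, and their part was not tested; in the other libraries these markers were lower than in the rest, at 17.0 against 19.2 and 7.17 against 14.4 CPM.

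**Figure D4:**
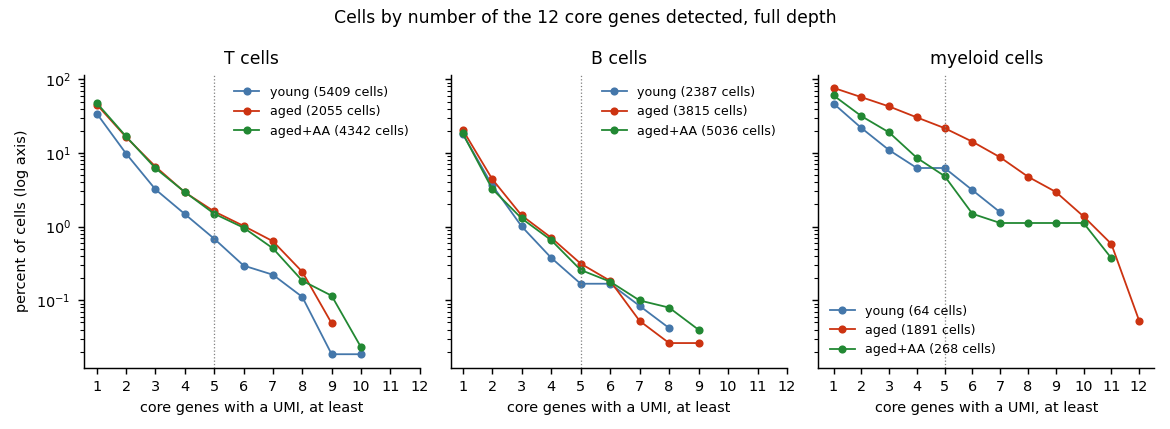
Percent of T, B and myeloid cells (log axis) with at least the number of core genes on the horizontal axis, at full depth, in the young, aged and aged+AA libraries; points are shares of the cells of 1 library, and shares of 0 are left out. At the limit of 5 genes (dotted line) 33 of 2055 aged and 65 of 4342 aged+AA T cells remain (1.61% in aged), against 0.684% of the young T cells.

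The cells with 5 or more core genes held 11.1%, 19.2% and 18.4% of the core UMIs of their T gate, with 0.750%, 1.77% and 1.69% of all UMIs. Most core UMIs were thus in T cells with fewer core genes. The share differed by gene. Ifit3 had 32.8%, 56.1% and 41.2% of its T-cell UMIs in these cells and Ifit1 22.3%, 35.3% and 33.9%, but Irf7 only 5.62%, 10.3% and 10.9%. Ifit3 is a core gene and helped to choose the cells, so these shares are a description.

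The 23 members outside the core did not choose the cells. All 23 were higher in the T cells with 5 or more core genes than in the other T cells of the same library, in each of the 3 libraries. The 95% interval of the ratio lay above 1 for 22 members in young (3.56% of all genes), 22 in aged (4.82%) and 23 in aged+AA (4.48%); the exceptions were Stat2 in young and Slfn2 in aged. Slfn5 had ratios of 15.3, 14.4 and 16.6, and Isg20 was at 169 against 11.1, 227 against 18.1 and 150 against 12.7 CPM. Bst2 was at 550 against 101, 964 against 152 and 755 against 137 CPM. Ifi208, lower in the aged T gate as a whole, was higher in these cells in each library, with ratios of 2.39 (1.36 to 3.91), 4.04 (2.22 to 6.83) and 2.22 (1.30 to 3.54).

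Interferon-induced genes that are not members were higher in these cells too. Of the 38 that passed the filter from a list of 43, the interval lay above 1 for 31 in young, 35 in aged and 35 in aged+AA T cells. In B cells the members outside the core had an interval above 1 for 14 of 20 tested in young (2.53% of all genes), 22 of 23 in aged (2.45%) and 21 of 23 in aged+AA (2.49%). The 4 plasmacytoid dendritic markers were at 315 against 168, 450 against 234 and 284 against 194 CPM in these B cells and the other B cells, on 9, 22 and 15 UMIs, and their part was not tested. In T cells thinned to 2000 UMIs, Isg15 was found in 15.3% (young), 42.1% (aged) and 29.6% (aged+AA) of those with an Ifit3 UMI, and in 2.12%, 4.27% and 3.37% of those without. The T cells with 5 or more core genes were of both coreceptor kinds, with 13, 8 and 32 CD8 and 9, 14 and 15 CD4 cells, and 5 of 37, 20 of 33 and 38 of 65 had a Ccl5 UMI.

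**Figure D5:**
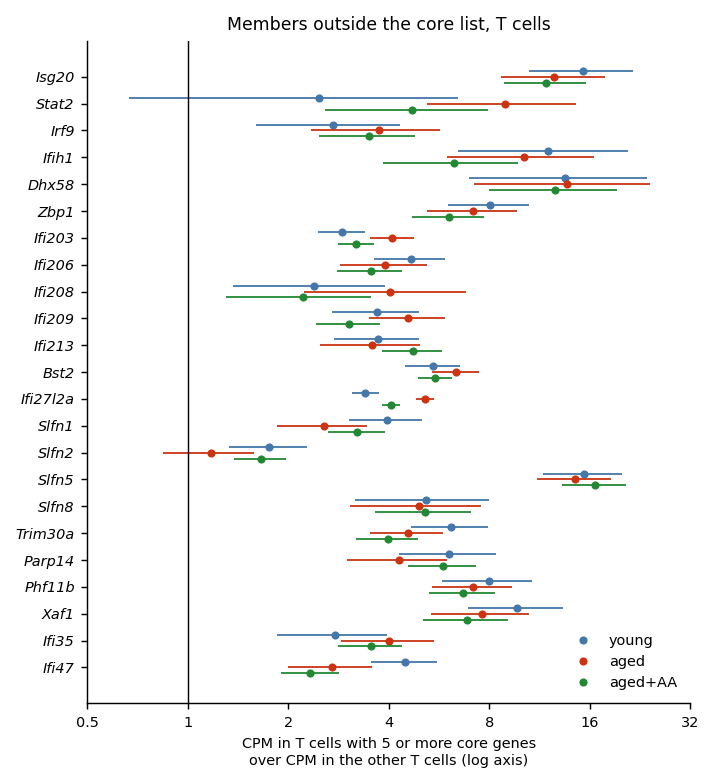
Ratio of CPM in T cells with 5 or more core genes over CPM in the other T cells (log axis) for the 23 members outside the core, in the young, aged and aged+AA libraries. Points are ratios within 1 library and lines exact 95% intervals for counting error; every point is above 1, from Slfn2 at 1.76, 1.17 and 1.65 to Slfn5 at 15.3, 14.4 and 16.6.

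Without these cells the members' median in T cells of aged over young was 0.08 on the relative log2 scale instead of 0.27, and 6 members were higher instead of 7 (15.8% of all genes). The relative log2 ratio of Ifit3 changed sign, to -0.16. The cells left out were chosen by the core genes and made up 0.684% of young and 1.61% of aged T cells. A fall in these values is therefore in part built in, and Ifit3 is itself a core gene. Oas1a, Oas3 and Ifi27l2a were carried mostly by other cells, with 16.3%, 14.5% and 8.47% of their aged T-cell UMIs in the cells with 5 or more core genes. In B cells the median and the count without these cells were 0.15 and 7, as before.

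Of the other genes of the pathway, the interferons themselves were almost absent. The 18 type I ligand genes together had 10, 5 and 1 UMIs over all cells. Ifng, the type II interferon made by activated T and NK cells, was at 4.34, 29.4 and 24.4 CPM in T cells, with a relative ratio of aged over young of 5.15 (4.17 to 6.42). Of 12 receptor and signalling genes, 1 was higher in T cells of aged over young (Tyk2; 16.1% of all genes) and 0 lower (13.3%), and in B cells 0 were higher (11.9%) and 3 lower (Socs1, Socs3 and Irf1; 10.8%). For aged+AA over aged, Socs3, a feedback inhibitor of cytokine receptors, was higher in T cells (7.37% of all genes), and Socs1 and Socs3 in B cells (6.18%). The receptor chain Ifnar1 was at 56.2, 77.8 and 59.9 CPM in T cells, with a relative ratio of aged over young of 1.05 (0.966 to 1.15).

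Of 12 nucleic acid sensing genes tested in T cells, Tlr7, Irf5 and Irf8 were higher in aged over young (16.1% of all genes) and the same 3 were lower in aged+AA over aged (8.45%), 2 comparisons that share the aged library. These genes are typical of B and myeloid cells, and their levels in T cells were 1.94, 4.01 and 2.02 CPM for Tlr7. Of 40 further interferon-induced genes tested in T cells, 15 were higher (16.1% of all genes) and 1 lower (13.3%) in aged over young, and 1 was higher (7.37%) and 9 lower (8.45%) in aged+AA over aged. In B cells 13 of 38 were higher (11.9%) and 0 lower (10.8%), then 0 of 40 higher (6.18%) and 12 lower (7.17%). In myeloid cells 26 of 42 were higher (23.7%) and 2 lower (22.7%), then 3 higher (15.9%) and 11 lower (18%). The most abundant of them in T cells, Ms4a4b, Shisa5 and Psmb8, had relative ratios of aged over young of 1.24 (1.21 to 1.27), 0.902 (0.879 to 0.925) and 1.09 (1.05 to 1.13), all inside the limit of 1.5.

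The 16 members with GAAANNGAAA in the promoter had a median of 0.44 on the relative log2 scale in T cells of aged over young, and the 12 with a promoter sequence but no match 0.01. In CD4 T cells the medians were 0.63 and 0.02. In B cells they were 0.24 and 0.12. In myeloid cells of aged over young they were nearly level, at 1.199 for 15 members with a match and 1.285 for 12 without. Ifi208 holds the letters and was the lowest member in T cells, so members with the letters went both ways. In CD8 T cells of aged over young the medians were 0.27 with a match and 0.005 without. For aged+AA over young the order was reversed in T cells (-0.027 with, 0.086 without) and in CD8 T cells (-0.014 and 0.088). In that comparison B cells were nearly level, at -0.111 and -0.139, and CD4 T cells had 0.33 and 0.05. Myeloid cells had 1.204 and 0.930 there. For aged+AA over aged, which shares the aged library, members with a match had the lower median in each of these gates. The medians with and without a match were -0.231 and -0.011 in T cells and -0.262 and -0.201 in B cells. They were -0.163 and 0.031 in CD4 T cells, -0.193 and 0.049 in CD8 T cells and -0.500 and -0.301 in myeloid cells. These medians are a description of 28 genes in single libraries.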

How the data were processed

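Single-cell libraries of mouse peripheral blood mononuclear cells were analysed from 3 deposited matrices, 1 per group, holding raw UMI counts for all barcodes; the authors made these counts with Cell Ranger 4, per the file headers, on mm10, per the submitters' processing notes, which also name Seurat 3.1.0. Cells were barcodes that reached 500 UMIs and 250 detected genes with mitochondrial UMIs of 10% or less, and doublets were removed with Scrublet (scanpy 1.11.5, 30 components, seed 1), 4.50%, 4.28% and 4.12% of cells. No cell annotation was used. T, B and NK cells needed UMIs of at least 3 different markers of their lineage and myeloid cells of at least 5. Lymphoid gates allowed up to 4 of the 12 myeloid markers and the NK gate up to 2 T markers. The T gate set no limit on NK markers, also in its stricter form. Otherwise at most 1 marker of another lineage was allowed, and at most 10% haemoglobin. The gates are ranges on marker counts, so a shallow cell can fall outside its gate.

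UMIs were summed per gate and library and divided by the total to give CPM. Ratios were divided by the median ratio of all genes with at least 20 UMIs in the libraries compared, after adding 0.5 to each count for calls at 1.5-fold. Intervals are exact (conditional binomial for ratios, Poisson for levels, Clopper-Pearson for shares; scipy 1.17.1) at 95%. They cover counting error only. A UMI share of 0 is given with the limit of 3 counts. With 1 library per group no p-value was computed. Free RNA was estimated from low-count barcodes. The calculation was tested on simulated data. The members and gene lists were chosen with earlier results of these data known. Genes named were 6 fixed members (Isg15, Ifit1, Ifit3, Irf7, Bst2 and Ifi27l2a) in each gate and up to 6 more by size of ratio per gate and comparison; the T gate is described for all members, and genes outside this rule there, in the subsets and in cells with many core genes were chosen after their values were seen. Alternatives tried were other scalings, count minimums, gates, mitochondrial limits and thinning depths, free RNA subtraction, and leaving out cells. Mx1 and Mx2 were not analysed here. The values of 1 signalling gene are not reported here.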

Additional observations from a re-analysis of the deposited data

How the results depend on the processing

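No paired analysis was possible because each group is 1 library. Of the values under alternatives that answer a comparison, 310 stayed near the main value and 83 moved; among single named genes 731 stayed, 83 moved and 7 reversed. The cause was not tested except where the alternative itself sets the value. With no centring on the all-gene median, T cells of aged over young had a members' median of 0.67, 19 members higher (35.4% of all genes) and 0 lower (5.67%), and B cells 15 higher (25.4%); aged+AA over aged had 9 lower in T (16.9%) and 12 lower in B cells (12.8%). With CPM without ribosomal, mitochondrial and haemoglobin genes, also uncentred, these were 15 higher in T (23% of all genes) and 11 higher in B cells (20.2%) of aged over young and 7 lower in T cells of aged+AA over aged (11%). At a minimum of 5 counts, NK cells of aged over young had 6 of 27 members higher (18% of all genes) and 4 lower (15.4%). For aged+AA over aged they had 1 of 26 higher (15.1%) and 5 lower (16.6%). Myeloid cells of aged over young had 30 of 35 higher (24.8%) and 1 lower (26.2%) at the same minimum. At 50 counts NK cells had 2 of 15 higher (9.82%) and 1 lower (8.21%) in the first comparison. In the second, 0 of 12 were higher (5.27%) and 1 lower (6.95%). With free RNA subtracted, 2 of 19 members were higher in NK cells of aged over young (12.5% of all genes). For aged+AA over aged, NK cells had 3 higher (9.75%) and myeloid cells 1 (16.2%). At most 5% mitochondrial UMIs gave 10 of 35 members higher (15.5% of all genes) and 1 lower (12.1%) in B cells of aged over young. A stricter gate kept 2973, 213 and 1461 T cells. It gave 9 of 35 members higher (18.4% of all genes) and 3 lower (17%) in T cells of aged over young. For aged+AA over aged it gave 6 higher (12%) and 6 lower (12.8%) in T cells. In myeloid cells of that comparison 3 of 34 were higher (18%) and 10 lower (19.4%). B cells of aged over young had 4 of 23 higher (13.4%). In NK cells of aged over young 1 member was tested, at -2.63, with 0 higher (24.3%) and 1 lower (26.2%). For NK cells aged+AA over aged gave no value under this gate. Under it the log2 ratio reversed for Ifit3 (-1.20) and Isg15 (-0.0088) in T cells of aged over young, Isg15 in T cells of aged+AA over aged (0.65), and Irf7 in B cells of aged over young (0.072) and aged+AA over aged (-0.49). In T cells with no Ccl5 UMI, aged over young had 10 of 35 higher (14.9% of all genes) and 1 lower (13.3%). For aged+AA over aged these cells had 1 higher (7.55%) and 5 lower (9.26%), and Isg15 reversed to 0.16. Without cells with 5 or more core genes, 1 member was higher in T cells of aged+AA over aged (7.35% of all genes). In myeloid cells 2 were higher (12%). Ifit3, itself a core gene that chose these cells, reversed to -0.16 in T cells of aged over young. Without the 1% of cells with the most core UMIs, 2 members were higher in NK cells of aged+AA over aged (9.55% of all genes). In myeloid cells 2 were higher as well (15.7%). Myeloid cells without neutrophils had 2 higher (15.3%) and 22 lower (17.8%) in aged+AA over aged, with a median of -0.75. The percent of cells with many core genes followed the limit. With 2 or more core genes it was 1.22, 2.68 and 1.99 in T cells, 0.712, 0.895 and 0.618 in B cells and 17.7 (aged) and 13.3 (aged+AA) in myeloid cells. With 4 or more it was 0.0371, 0.195 and 0.162 in T cells, 0.0598 in aged+AA B cells and 0, 3.15 and 1.90 in myeloid cells. At 2000 UMIs per cell it was 0.879, 1.81 and 1.70 in T cells, 0.626 (aged) and 0.565 (aged+AA) in B cells and 16.5 and 8.37 in myeloid cells. Unthinned, 3 or more gave 3.20, 6.52 and 6.20 in T cells, 1.01, 1.42 and 1.29 in B cells and 10.9, 42.8 and 19.0 in myeloid cells, and 5 or more gave 0.684, 1.61 and 1.5 in T cells and 21.7 in aged myeloid cells. At most 5% mitochondrial UMIs gave 0.079 in young T and 0 in young B cells, and the stricter gate 0, 0 and 0 in B cells and 0 in young myeloid cells. The 5% of cells with the most member UMIs, over all members and not the core alone, held 19.8%, 21.5% and 22% in T cells, 20.9%, 20.6% and 22.7% in B cells, 16.4%, 18.1% and 18.6% in NK cells and 17.0% (aged) and 24.4% (aged+AA) in myeloid cells. Depth limits NK and young myeloid cells most, where many members rest on fewer than 20 UMIs.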

Other observations

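In the 5% of T cells with the most core UMIs, after thinning to 1000 UMIs per cell, lay 58.5% (young), 48.5% (aged) and 51.1% (aged+AA) of all core UMIs, while 90.0%, 84.7% and 86.4% of T cells had no core UMI at that depth. The highest number of core UMIs in 1 thinned T cell was 4, 7 and 10. In monocytes of the aged library 288 of 1037 cells had 5 or more core genes at full depth, and 4 of 112 with AA; in neutrophils it was 112 of 814 and 9 of 155. The myeloid gates differ in depth, with medians of 4524 and 2738 UMIs. At 1000 UMIs per cell, 3 or more core genes were found in 4.35% (3.19 to 5.78%) of aged and 1.79% (0.217 to 6.30%) of aged+AA monocytes, and in 9.36% (7.44 to 11.6%) and 7.33% (3.72 to 12.7%) of neutrophils, with overlapping intervals.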
